A study of Arabidopsis thaliana with 18 samples.

Results

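The genes described here encode the 4 NPR proteins that perceive or relate to salicylic acid (SA), NPR1 (AT1G64280), NPR2 (AT4G26120), NPR3 (AT5G45110) and NPR4 (AT4G19660), and partners of NPR1 and the TGA factors, NIMIN1 (AT1G02450), NIMIN2 (AT3G25882), NIMIN3 (AT1G09415) and GRXC9 (AT1G28480, also GRX480). They were taken by locus code, 8 of the 32678 genes in the table, and 8 of 8 passed the filter on low counts that left 20023 genes. Leaf poly(A) RNA was sequenced from 35S:RPS4, an Arabidopsis Col-0 line carrying 35S:RPS4-HS, and from Col-0 itself, with 3 libraries in each of 6 groups. Plants of both lines grew for 3.5 weeks at 28 °C and were taken either unshifted (0 h) or once they had spent 4 h or 8 h at 19 °C, with no pathogen applied. RPS4 is a TIR-NB-LRR (TNL) immune receptor whose over-expression drives defence at the lower temperature. The 6 groups were thus 35S:RPS4 at 0 h, 4 h and 8 h, and Col-0 at 0 h, 4 h and 8 h. NPR2 passed the filter only through 35S:RPS4 at 4 h and 8 h, the groups where it was high. The 35S promoter is active in nearly all leaf cells, 1 transgenic line was used, and RPS4 counts sum the transgene and the native gene. Nothing in the labels states that the 3 libraries of a group are separate plants, and the p-values thus reflect variation among samples that may be technical. Time since the shift runs together with the hour of the day, so each time point was set against Col-0 collected at the same time.

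NPR1 has no DNA-binding domain and acts as a co-activator: SA releases it to the nucleus, where it meets TGA transcription factors at promoters such as that of PR1. NPR3 and NPR4 bind SA as well and are known as co-repressors and as adaptors that bring NPR1 to the proteasome, and NPR2 is the closest relative of NPR1. NIMIN proteins are small NPR1-binding repressors, NIMIN1 and NIMIN2 binding its C-terminal part and NIMIN3 its N-terminal part, and GRXC9 is a CC-type glutaredoxin that binds TGA factors and is known for holding down jasmonate-responsive genes.

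Before the values, the promoters of the 4 members that hold a TGACG core, the letters TGA factors recognise, are shown, since NPR1 and GRXC9 act through these factors. Each run is the 250 bases before the annotated gene start, 5′ to 3′ on the strand of the gene, from the RefSeq annotation of TAIR10.1, in the order chr3:9471040-9471289 (minus strand), chr4:10698812-10699061 (minus), chr5:18228518-18228767 (plus) and chr1:10014257-10014506 (minus). Capitals mark the TGA core TGACG, the core of the W box bound by WRKY factors, which is TTGAC, and the CAMTA core in its forms CGCG or, with T as the third base, CGTG, each read on both strands.
NIMIN2: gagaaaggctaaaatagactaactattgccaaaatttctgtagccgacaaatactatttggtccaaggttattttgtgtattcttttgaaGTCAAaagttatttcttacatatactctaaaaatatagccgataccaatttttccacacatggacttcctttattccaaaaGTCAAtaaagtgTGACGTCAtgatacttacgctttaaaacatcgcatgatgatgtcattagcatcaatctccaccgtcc
NPR4: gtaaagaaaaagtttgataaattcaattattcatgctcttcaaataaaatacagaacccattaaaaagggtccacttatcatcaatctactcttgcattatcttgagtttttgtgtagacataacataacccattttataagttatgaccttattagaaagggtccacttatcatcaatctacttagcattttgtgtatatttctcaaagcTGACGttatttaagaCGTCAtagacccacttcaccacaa
NPR3: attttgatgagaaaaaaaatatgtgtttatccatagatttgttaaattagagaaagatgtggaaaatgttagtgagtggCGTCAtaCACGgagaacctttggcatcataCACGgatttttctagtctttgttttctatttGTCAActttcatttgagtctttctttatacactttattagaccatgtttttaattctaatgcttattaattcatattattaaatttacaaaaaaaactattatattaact
GRXC9: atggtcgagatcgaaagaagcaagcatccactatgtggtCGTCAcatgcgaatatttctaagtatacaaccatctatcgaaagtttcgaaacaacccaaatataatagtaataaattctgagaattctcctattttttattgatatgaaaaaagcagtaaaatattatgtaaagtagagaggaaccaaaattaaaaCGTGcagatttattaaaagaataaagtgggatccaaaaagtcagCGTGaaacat
In NIMIN2 a TGACG on one strand runs into a TGACG on the other, so the pair overlaps, and NPR4 carries 2 that lie apart. TGACG was in 4 of 8 windows, against 18.6% of the 27443 windows of protein-coding nuclear genes of the annotation, and 2 or more in 3.21% of them. TTGAC was in 2 of 8 (NPR3 and NIMIN2), against 44.9%, and CGTG in 3 of 8 (NPR3, GRXC9 and NIMIN1), against 45.6%. CGCG, found in 2783 of the 27443 windows, was in 0 of 8, and the windows of NPR1, NPR2 and NIMIN3 held none of these letters. These are matches of letters in a short window and not measured binding sites, and the window of NIMIN3 overlaps exons of the neighbouring genes AT1G09420 and AT1G09421.

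Libraries held between 23876651 and 36291942 counts in genes, so that 3 counts in a library stood at 0.0845 to 0.15 CPM (counts per 1e6 counts in genes, scaled by TMM). RPS4 itself stood at 665 to 2604 CPM in the 9 libraries of 35S:RPS4, against 12.2 to 20.1 CPM in the 9 of Col-0, which fits their labels. The counts of replicate 1 of Col-0 at 0 h differed from those of replicate 2 by a chi-square statistic of 114.1 per gene and from those of replicate 3 by 60.4, against 12.6 to 62.8 for the pairs it was not in. Without this library the genes called between the lines at 0 h were 182 in place of 2. Leaf mesophyll markers (RBCS1A, RCA, CA1 and LHCB3) were present in every library and summed to 4590 to 5170 CPM in 35S:RPS4 at 8 h, against 14300 to 18600 CPM in Col-0. At 4 h their sum lay between 17100 and 19700 CPM in 35S:RPS4, against 20400 to 21900 CPM in Col-0. At 8 h all 4 were called lower, LHCB3 with a log2FC of -2.57, while guard cell markers summed to 55.5 to 74.4 CPM against 89.9 to 102 CPM (1 of 4 called higher and 2 lower) and vascular markers to 60.4 to 127 CPM against 146 to 198 CPM (0 of 3 called). The seed marker CRA1 was at 0 counts in 18 libraries and the root marker IRT1 in 16, the 7 root, flower and seed markers together summing to 1.6 to 75.5 CPM. In whole leaves, fewer cells of a type and less RNA per cell cannot be told apart, and the part of these shifts in the values below was not tested.

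Before the shift the lines did not differ detectably in any of the 8 genes. At 28 °C 0 of 8 were called by edgeR's quasi-likelihood test (adjusted p under 0.01 and an absolute log2FC above 1), where 0.00999% of all genes were. The unadjusted p was under 0.05 for 0 of 8 as well, and DESeq2 and limma voom called 0. NPR1 stood at 26.7 to 32.7 CPM in 35S:RPS4 and 31.15 to 35.2 CPM in Col-0, NPR4 at 15.5 to 22.2 CPM against 13.5 to 24.1 CPM, NPR3 at 5.23 to 7.54 CPM against 4.33 to 7.08 CPM and NIMIN3 at 4.32 to 5.32 CPM against 3.54 to 5.85 CPM. Libraries of both lines overlapped for every member, with log2FC between -1.19 for GRXC9 and 0.38 for NIMIN1. That does not show that they were equal: for the scarce transcripts of NPR2 (9 counts in each line), the ratio of summed counts of 1.04 has a 95% counting interval of 0.365 to 2.95. For GRXC9 (109 counts in 35S:RPS4, 254 in Col-0) the ratio was 0.446 (0.353 to 0.56), and for NPR1 it was 0.908 (0.86 to 0.959). The intervals of the other members spanned 1. Such intervals cover counting error only.

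After the shift all 4 NPR genes were higher in 35S:RPS4. At 4 h 8 of 8 members were called, all higher, against 29% of all genes called in either direction and 16.6% called higher. At 8 h 7 of 8 were called higher and NIMIN3 lower, against 56.7% called in either direction, 26.6% higher and 30.1% lower. NPR2, in both counts, passed the filter on low counts only through 35S:RPS4 after the shift, where it was high. Its call as higher was thus not independent of the filter. The median log2FC of the 8 was 5.28 at 4 h and 6.29 at 8 h, beside -0.005 and -0.102 over all genes tested. The plot of levels shows each library.

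**Figure D1:**
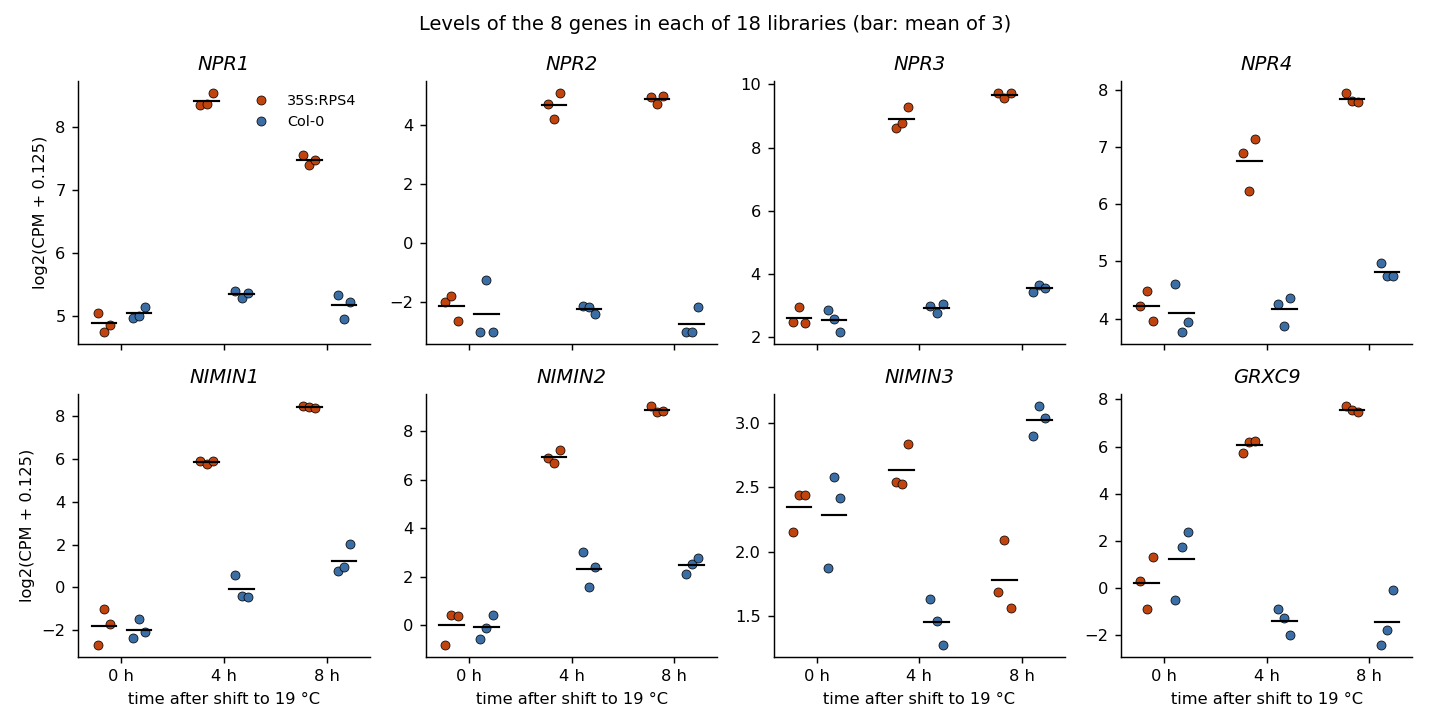
Levels of the 8 genes in each library as log2 of CPM plus the small constant written on the axis, by hours after the shift to 19 °C, with 35S:RPS4 in orange to the left of Col-0 in blue and a bar at the mean of 3 libraries. In 7 panels the 35S:RPS4 libraries at 4 h and 8 h lie far above those of Col-0, while in the NIMIN3 panel, whose axis covers a much narrower range, they lie above at 4 h and below at 8 h.

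NPR1, the co-activator, stood highest in 35S:RPS4 at 4 h. It stood at 326, 332 and 373 CPM in the 35S:RPS4 libraries at 4 h, against 41.9, 38.8 and 41.2 CPM in Col-0. At 8 h the values were 188, 168 and 178 CPM in 35S:RPS4, against 40.0, 30.8 and 37.0 CPM in Col-0. The lines did not overlap at either time, and the 35S:RPS4 libraries at 8 h all lay below those at 4 h. This gave a log2FC of 3.08 ± 0.12 (SE) for 4 h (edgeR, Benjamini-Hochberg adjusted p = 5.39e-12) and of 2.31 ± 0.12 for 8 h (adjusted p = 3.64e-11). Within 35S:RPS4 the log2FC of 8 h over 4 h was -0.95 ± 0.12 (adjusted p = 2.04e-06), just short of the fold needed for a call. In the order of levels, 35S:RPS4 at 4 h and then at 8 h came first without overlap, and the remaining 4 groups (29.4 to 40.6 CPM on average) overlapped their neighbours. The NPR1 gene, at chr1:23852748-23855658 with 4 exons on the minus strand, shares 38 exon bases with AT1G64270 on the other strand and overlaps an exon of AT1G08667 there. The strand setting of the counting is not given in the sources used here. AT1G64270 stood at 0.496 to 1.07 CPM in 35S:RPS4 at 8 h, against 3.48 to 5.15 CPM in Col-0 (edgeR log2FC -2.45 ± 0.29, adjusted p = 6.08e-07). Values of AT1G08667 were not examined, and the part of either overlap in the NPR1 counts was not tested.

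NPR2, the closest relative of NPR1 (chr4:13236253-13238818, plus strand, 4 exons), was nearly undetected except in 35S:RPS4 after the shift. It had 26.1, 18.4 and 33.6 CPM in 35S:RPS4 at 4 h, against 0.104, 0.0987 and 0.0648 CPM in Col-0 (3, 3 and 2 counts). The 8 h libraries had 30.9, 26.1 and 31.3 CPM in 35S:RPS4 (2500 counts in all), whereas Col-0 had 0, 0 and 3 counts. The ratio of summed counts was 292.5 at 4 h (95% counting interval 148 to 679) and 892 at 8 h (305 to 4327). The fitted log2FC at 4 h was 8.13 ± 0.61 (adjusted p = 7.72e-09), and that at 8 h was 9.64 (adjusted p = 1.16e-09), which rests on the 3 counts of Col-0 replicate 3. Without that library Col-0 held 0 counts at 8 h, and the fitted value, no bound, was 12.69 (adjusted p = 1.63e-08). In 35S:RPS4 the libraries of 8 h and 4 h overlapped (log2FC 0.18 ± 0.37, adjusted p = 0.694). In Col-0 and before the shift, its level was under or near 3 counts a library, the highest being 9 counts in Col-0 at 0 h, replicate 2.

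NPR3, an SA-binding co-repressor (chr5:18228768-18231588, plus strand, 3 exons), had larger folds than NPR1 and NPR4. It had 395, 436 and 620.4 CPM in 35S:RPS4 at 4 h, against 7.68, 6.68 and 8.10 CPM in Col-0. NPR3 reached 846, 766 and 849.7 CPM in 35S:RPS4 at 8 h, against 10.7, 12.4 and 11.5 CPM in Col-0. No library of 35S:RPS4 overlapped Col-0, with a log2FC of 6.15 ± 0.23 for 8 h (adjusted p = 1.48e-12) beside 6.01 ± 0.23 for 4 h, and its change of 0.14 ± 0.27 between the times was not called (adjusted p = 0.679). Within 35S:RPS4 the 8 h libraries all lay above those of 4 h (log2FC 0.76 ± 0.19, adjusted p = 0.00182), short of the fold needed.

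NPR4, the other SA-binding co-repressor (chr4:10696266-10698811, minus strand, 3 exons), was higher as well. It had 119, 75.5 and 141 CPM in 35S:RPS4 at 4 h, against 19.0, 14.5 and 20.4 CPM in Col-0. The later values were 247, 223 and 222 CPM in 35S:RPS4 at 8 h, against 31.4, 26.8 and 26.6 CPM in Col-0. The lines did not overlap at either time, with a log2FC of 2.64 ± 0.24 (adjusted p = 9.60e-08) for 4 h and of 3.03 ± 0.24 for 8 h (adjusted p = 6.04e-09). Within 35S:RPS4 it was called higher at 8 h than at 4 h (log2FC 1.04 ± 0.23, adjusted p = 0.000716), 1 of 3 members so called with NIMIN1 and NIMIN2, where 38.9% of all genes were called and 13.7% higher. Leaving out replicate 2 of 35S:RPS4 at 4 h (0.83) or replicate 1 at 8 h (0.99) took it under the fold.

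**Figure D2:**
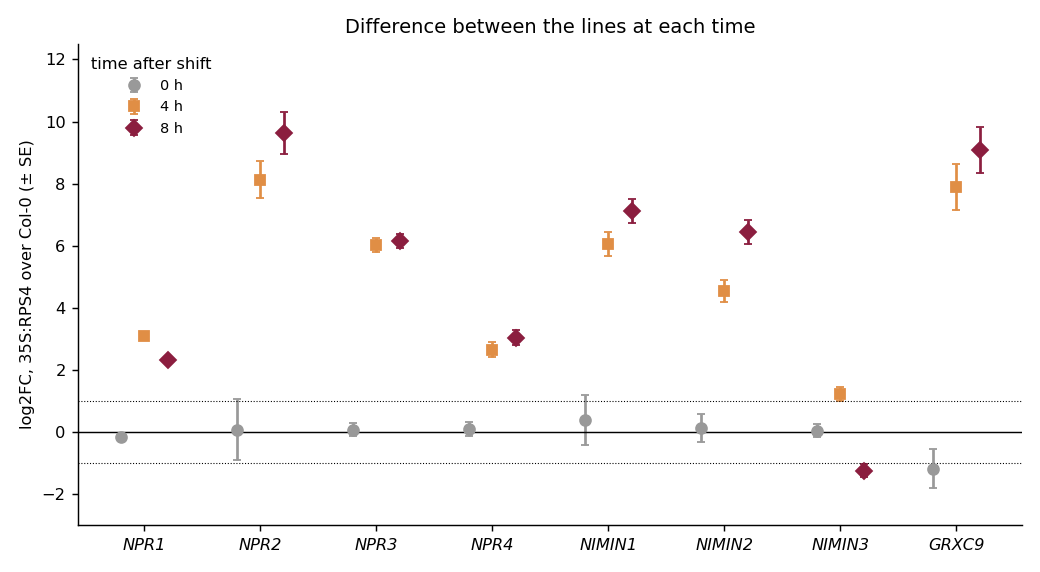
Difference between the lines (log2FC of 35S:RPS4 over Col-0, ± SE of the edgeR fit to 18 libraries) for each gene at 0 h (grey), 4 h (orange) and 8 h (dark red), with dotted lines at log2FC of 1 and -1. The differences at 0 h lie near 0 except for GRXC9 at -1.19, those at 4 h are all above 1, and at 8 h NIMIN3 alone lies below 0. The NPR2 value at 8 h rests on 3 counts in Col-0.

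The proportions of the receptors differed too, compared as levels per length (CPM per kb of exon) within each library. The sum of the co-repressors NPR3 and NPR4 over NPR1 was 5.88, 5.95 and 6.09 in the 35S:RPS4 libraries at 8 h, against 1.13, 1.35 and 1.10 in Col-0. At 4 h it was 1.60, 1.54 and 2.05 in 35S:RPS4, against 0.680, 0.581 and 0.738 in Col-0. At 0 h the lines overlapped, at 0.768 to 1.195 in 35S:RPS4 and 0.597 to 1.08 in Col-0. NPR3 alone stood at 4.43 to 4.71 times NPR1 in 35S:RPS4 at 8 h, against 0.262 to 0.396 times in Col-0, and NPR4 alone at 1.38 to 1.46 times, against 0.792 to 0.958 times. For 4 h the NPR3 ratio to NPR1 was 1.19, 1.29 and 1.63 in 35S:RPS4, against 0.181, 0.169 and 0.193 in Col-0, whereas that of NPR4 was 0.403, 0.251 and 0.417 in 35S:RPS4, against 0.499, 0.412 and 0.545 in Col-0. The higher sum at 4 h was thus in NPR3, since NPR4 over NPR1 was lower on average in 35S:RPS4 (0.357, against 0.485), with libraries that overlapped. NPR3 averaged 3.18 ± 0.20 times NPR4 in 35S:RPS4 at 8 h and 0.367 ± 0.057 times NPR4 in Col-0 (SD, n = 3 each). In every Col-0 group and in 35S:RPS4 at 0 h, NPR1 was the highest of the 8 genes per length on average, and at 8 h in Col-0 it overlapped NIMIN3. In 35S:RPS4 at 8 h the order was NIMIN2, NIMIN1, NPR3, GRXC9, NPR4, NPR1, NPR2 and NIMIN3, with no overlap between neighbours. These ratios are descriptions of transcripts, and no protein was measured.

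**Figure D3:**
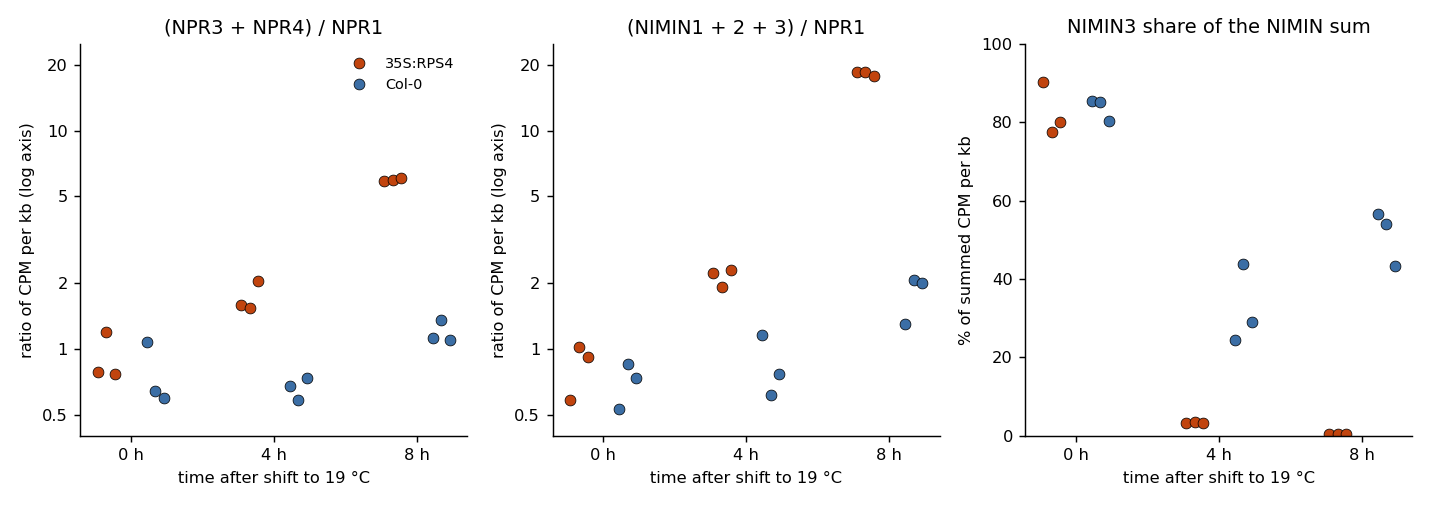
Proportions of the transcripts in each library (CPM per kb of exon) by hours after the shift, with 35S:RPS4 in orange left of Col-0 in blue: NPR3 plus NPR4 over NPR1 (log axis), the sum of NIMIN1, NIMIN2 and NIMIN3 over NPR1 (log axis), and the share of NIMIN3 in the NIMIN sum. Both ratios are highest in 35S:RPS4 at 8 h, at about 5.97 and 18.4, where the NIMIN3 share is lowest at 0.413%.

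NIMIN1 and NIMIN2, repressors that bind the C-terminal part of NPR1, were both higher in 35S:RPS4 and higher at 8 h than at 4 h. NIMIN1 had 59.6, 53.5 and 59.6 CPM in 35S:RPS4 at 4 h, against 1.39, 0.625 and 0.616 CPM in Col-0. The 8 h values were 349.9, 341 and 332 CPM in 35S:RPS4, against 1.59, 1.81 and 3.903 CPM in Col-0. The 35S:RPS4 libraries at each time differed little from each other, and none overlapped Col-0 (log2FC 7.13 ± 0.39 at 8 h, adjusted p = 5.20e-11, beside 6.04 ± 0.39 at 4 h). From 4 h to 8 h within 35S:RPS4 the log2FC was 2.57 ± 0.31 (adjusted p = 1.61e-06).

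NIMIN2 had 118, 103 and 152 CPM in 35S:RPS4 at 4 h, against 8.03, 2.83 and 5.18 CPM in Col-0. NIMIN2 reached 527, 440.2 and 461 CPM in 35S:RPS4 at 8 h, against 4.14, 5.69 and 6.73 CPM in Col-0. Again the lines did not overlap, with a log2FC of 4.54 ± 0.36 for 4 h (adjusted p = 1.45e-08) and of 6.43 ± 0.39 for 8 h (adjusted p = 1.65e-10). The line effect of NIMIN2 was larger at 8 h than at 4 h by 1.89 ± 0.45 (adjusted p = 0.00186), 1 of 2 members for which this change was called, where 36.2% of all genes were (13.3% higher and 22.9% lower). For NIMIN1 the same change was 1.09 ± 0.49 (adjusted p = 0.0707), and it was called without Col-0 8 h replicate 3 (1.61, adjusted p = 0.00601).

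NIMIN3, the repressor that binds the N-terminal part of NPR1, went the other way with time. It had 5.70, 5.63 and 7.03 CPM in 35S:RPS4 at 4 h, against 2.98, 2.63 and 2.30 CPM in Col-0. The later values were 3.09, 4.14 and 2.84 CPM in 35S:RPS4 at 8 h, against 7.35, 8.65 and 8.10 CPM in Col-0. At both times the lines did not overlap, but 35S:RPS4 was the higher at 4 h (log2FC 1.21 ± 0.22, adjusted p = 0.00017) and the lower at 8 h (log2FC -1.25 ± 0.21, adjusted p = 4.78e-05). The change of the line effect between the times was -2.47 ± 0.31 (adjusted p = 4.24e-06). Much of it lay in Col-0, where NIMIN3 was higher at 8 h than at 4 h (log2FC 1.61 ± 0.22, adjusted p = 4.04e-05), beside -0.86 ± 0.22 in 35S:RPS4 (adjusted p = 0.00213, short of the fold, which it passed at -1.05 without 35S:RPS4 8 h replicate 2). In 35S:RPS4 neither time was called against 0 h (log2FC 0.30 ± 0.21 for 4 h, adjusted p = 0.239, and -0.56 ± 0.21 for 8 h, adjusted p = 0.0249). With library totals in place of TMM the median log2FC of all genes at 4 h moved to -0.428, and NIMIN3 stood at 0.79 (adjusted p = 0.00667), short of the fold, which is 1.22 above that median. NIMIN1 (chr1:497917-498539), NIMIN2 (chr3:9470357-9471039) and NIMIN3 (chr1:3037754-3038408) have a single exon of 623, 683 and 655 bases on the minus strand.

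In sum of transcripts per length, the NIMIN genes stood at 18.6, 18.7 and 17.9 times NPR1 in 35S:RPS4 at 8 h, against 1.30, 2.07 and 2.01 times in Col-0. NIMIN3 made up 0.353%, 0.528% and 0.357% of that sum in 35S:RPS4, against 56.6%, 54.0% and 43.4% in Col-0. At 4 h its share was 3.14% to 3.504% in 35S:RPS4 and 24.5% to 43.9% in Col-0. At 0 h NIMIN3 was the main NIMIN transcript of both lines, at 77.6% to 90.4% in 35S:RPS4 and 80.3% to 85.4% in Col-0.

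GRXC9, the TGA-binding glutaredoxin (chr1:10013434-10014256, minus strand, 1 exon), had a larger log2FC between the lines than any NPR or NIMIN gene except NPR2, both 4 h and 8 h after the shift. It had 52.1, 73.9 and 75.5 CPM in 35S:RPS4 at 4 h, against 0.415, 0.296 and 0.130 CPM in Col-0. GRXC9 reached 210.5, 187 and 174 CPM in 35S:RPS4 at 8 h, against 0.0647, 0.164 and 0.813 CPM in Col-0 (2, 5 and 25 counts). Its log2FC was 9.08 ± 0.75 for 8 h (adjusted p = 8.74e-09), beside 7.89 ± 0.75 for 4 h, and the ratio of summed counts at 8 h was 543 (95% counting interval 385 to 795). Of the 32 counts of Col-0 at 8 h, 25 were in replicate 3, and without that library the log2FC was 10.65 (adjusted p = 2.92e-08), so the spread between libraries exceeds that interval. Within 35S:RPS4 the 8 h libraries lay above those of 4 h without a call (log2FC 1.504 ± 0.50, adjusted p = 0.0136). The call was made with library totals, no filter, limma voom, only the groups compared or a replicate block, and without 35S:RPS4 0 h replicate 3 (adjusted p = 0.00983), Col-0 0 h replicate 1 (0.00238) or Col-0 8 h replicate 3 (0.00745).

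Across the 6 groups, NPR3, NPR4, NIMIN1, NIMIN2 and GRXC9 shared the first places in the order of levels, 35S:RPS4 at 8 h and then 35S:RPS4 at 4 h, with no overlap between these or with the next group. The share of all genes with this order was not computed, so it is not shown to be particular to these genes. Of all genes, 26.6% were called higher in 35S:RPS4 than in Col-0 at 8 h, and 13.7% higher at 8 h than at 4 h within 35S:RPS4. For NPR3, NPR4 and NIMIN1, Col-0 at 8 h came next without overlapping the group below it, and for NIMIN2 it overlapped Col-0 at 4 h. NIMIN3 was highest in Col-0 at 8 h, followed without overlap by 35S:RPS4 at 4 h, and its other 4 groups overlapped their neighbours.

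In Col-0 a few of these genes differed between times, where the shift and the hour of day cannot be told apart. At 4 h against 0 h 3 of 8 were called, where 8.66% of all genes were (3.87% higher and 4.79% lower): NIMIN1 (log2FC 2.61 ± 0.60, adjusted p = 0.00397) and NIMIN2 (2.64 ± 0.39, adjusted p = 0.000127) were higher, and GRXC9 was lower (-3.40 ± 0.77, adjusted p = 0.00369). NIMIN2 had 8.03, 2.83 and 5.18 CPM at 4 h, against 0.556, 0.798 and 1.21 CPM at 0 h. NIMIN1 lost its call on leaving out replicate 1 (adjusted p = 0.0172) or 3 (0.0173) of Col-0 at 0 h, or replicate 1 at 4 h (0.0245), with log2FC of 2.12 to 2.48. Without Col-0 0 h replicate 2 its log2FC was 3.22 at 4 h and 4.70 at 8 h. NIMIN3 passed the fold, at -1.07 (adjusted p = 0.00164), without Col-0 0 h replicate 1, beside -0.88 (adjusted p = 0.00619) with it. At 8 h against 0 h 4 of 8 were called, where 22.3% of all genes were (10.5% higher and 11.8% lower). NIMIN1 was higher, at 1.59, 1.81 and 3.903 CPM at 8 h against 0.0694, 0.233 and 0.1101 CPM at 0 h (log2FC 4.09 ± 0.53, adjusted p = 8.12e-06). NIMIN2 (2.69 ± 0.39, adjusted p = 2.64e-05) and NPR3 (1.002 ± 0.20, adjusted p = 0.000495) were higher too. NPR3 sat at the fold threshold and fell under it without Col-0 0 h replicate 3 (0.84) or Col-0 8 h replicate 2 (0.95). At 8 h against 4 h 2 of 8 were called, where 9.28% of all genes were (4.4% higher and 4.88% lower), namely NIMIN3 as above and NIMIN1 (1.48 ± 0.39, adjusted p = 0.00799). NIMIN1 sat at that threshold, and its adjusted p passed 0.01 when any 1 of 11 of the 18 libraries was left out (0.0102 to 0.0632; 0.0632 and a log2FC of 0.96 without Col-0 8 h replicate 3).

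GRXC9 in Col-0 rested on uneven libraries at 0 h, at 0.590, 3.26 and 5.10 CPM, the low one being replicate 1. Its log2FC at 8 h over 0 h was -3.08 ± 0.74 (adjusted p = 0.00242), although the libraries overlapped. The call at 4 h held without that library (adjusted p = 0.000266, -3.88) and ended without any 1 of the other 5 libraries of Col-0 at 0 h and 4 h (adjusted p 0.0111 to 0.0209). The 8 h call was lost on leaving out replicate 3 of Col-0 at 0 h (-2.46, adjusted p = 0.0167), or, of Col-0 at 8 h, replicate 1 (-2.59, with an adjusted p of 0.013) or replicate 2 (-2.75, with an adjusted p of 0.0149), and with limma voom (-3.23, adjusted p = 0.0163) or only the groups compared (-3.06, adjusted p = 0.0355). It was kept at -4.65 without replicate 3 of Col-0 at 8 h.

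In 35S:RPS4 7 of 8 members were higher than at 0 h both at 4 h, where 33.1% of all genes were called (18.3% higher and 14.8% lower), and at 8 h, where 56.2% were (26.5% higher and 29.7% lower). NIMIN1 had the largest log2FC at both times, 8.26 ± 0.47 and 10.83 ± 0.49, with 0.0317, 0.371 and 0.184 CPM at 0 h. GRXC9 had 1.11, 0.412 and 2.36 CPM at 0 h and a log2FC of 5.68 ± 0.63 at 4 h and 7.19 ± 0.67 at 8 h. These folds moved with single libraries of 0 h: NIMIN1 was at 9.07 and 11.63 without replicate 2, and GRXC9 at 6.40 and 7.91 without replicate 3. Whether the response to the shift differed between the lines was tested as an interaction, called for 8 of 8 members at 4 h, all higher in 35S:RPS4 (25.3% of all genes were called, 15% higher and 10.2% lower), and for 8 of 8 at 8 h, 7 higher and NIMIN3 lower (52.2%, with 24.9% higher and 27.3% lower). Both interactions share the libraries of 0 h. NPR2, in all of these counts, was kept by the filter only through 35S:RPS4 after the shift. At 4 h the count was 5 of 8 without Col-0 0 h replicate 2, the library with 9 counts of NPR2. Without it the NPR2 interaction was 3.46 for 4 h (adjusted p = 0.911) and 4.97 for 8 h (adjusted p = 0.941), as Col-0 at 0 h then held 0 counts of NPR2, and the 4 h interaction of NIMIN1 was 5.04 (adjusted p = 0.0147). For NIMIN3 at 4 h the call (1.18, adjusted p = 0.00473) was lost without any 1 of 6 libraries, which were 35S:RPS4 0 h replicate 1, 35S:RPS4 4 h replicate 3 and replicates 2 and 3 of Col-0 at both 0 h and 4 h (1.03 to 1.19, adjusted p 0.0117 to 0.0164).

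Over the 18 libraries, which share the 6 groups, 7 members had patterns much alike: Pearson r of log2 CPM lay between 0.832 (NIMIN2 and GRXC9) and 0.992 (NIMIN1 and NIMIN2). NIMIN3 was unlike them, with r from -0.117 to -0.0111. How common such high r is among all genes was not computed, so the likeness is not shown to be particular to these members. Among 8569 genes with a symbol, those closest to NPR1 were LPAT4, FH4 and WRKY33 (r of 0.993 to 0.994) and those closest to NPR2 were CRK13, HR4 and FLOT1 (0.994 to 0.995). Closest to NPR3 were CCOAMT, SARD1 and RLK (AT2G37710) (0.993 to 0.995), and to NPR4 MLO2, B73 (AT5G20990) and ATG18D (0.988 to 0.991). NIMIN1 and NIMIN2 were each other's closest, followed by DIS1 and MUR4 for NIMIN1 (0.988 and 0.984) and by CPK5 and CPK31 for NIMIN2 (0.991 and 0.985). Closest to GRXC9 were TRX5, CPK29 and ATMDAR2 (0.984 to 0.988), while for NIMIN3 the best were GGPS3 at 0.904, ATPQ at 0.768 and ORA59 at 0.765.

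The TGA bZIP factors, through which NPR1 and GRXC9 reach DNA, were called in both directions. Of 8 tested of 10, 2 were called higher and 2 lower at 4 h, where 16.6% of all genes were called higher and 12.4% lower, and 5 higher and 1 lower at 8 h, where 26.6% were higher and 30.1% lower (medians of 0.07 and 1.82). TGA5 averaged 80.7 ± 2.6 CPM in 35S:RPS4 at 8 h and 4.78 ± 1.004 CPM in Col-0 (SD, n = 3 each, as for the means of CPM that follow; edgeR log2FC 4.08 ± 0.17, adjusted p = 4.52e-12). TGA3 averaged 173 ± 23 CPM in 35S:RPS4 at 4 h and 67.2 ± 1.8 CPM in Col-0 (log2FC 1.37 ± 0.15, adjusted p = 8.13e-07). PAN, a TGA factor known from flowers, was scarce, with 2 counts in 35S:RPS4 at 4 h against 61 in Col-0 (ratio 0.042, counting interval 0.00498 to 0.158), and at 8 h with 0 against 53, at least 16.5-fold lower when 35S:RPS4 is set to 3 counts for its libraries together, a bound at which it stays on the same side of the median.

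Genes whose products modify or turn over NPR1 protein were called higher or not at all: of 12 tested, 3 were higher at 4 h (16.6% of all genes) and 8 at 8 h (26.6%), and the medians were 0.22 and 1.51. Over all genes tested, more were called in either direction at 8 h, 56.7% against 29% at 4 h. TRX5, a thioredoxin that reduces NPR1, averaged 398 ± 32 CPM in 35S:RPS4 at 8 h and 4.33 ± 2.97 CPM in Col-0 (log2FC 6.52 ± 0.77, adjusted p = 6.86e-07). UBE4, which extends ubiquitin chains on NPR1, averaged 177 ± 7 CPM in 35S:RPS4, against 32.2 ± 14.3 CPM in Col-0 at 8 h (log2FC 2.46 ± 0.25, adjusted p = 1.36e-07). SUMO3, the SUMO form that is joined to NPR1, was low at 4 h, with means of 0.521 ± 0.294 CPM for 35S:RPS4 and 0.0899 ± 0.0536 CPM for Col-0 (log2FC 2.47 ± 0.71, adjusted p = 0.00754). Of 5 co-regulators, edgeR called 0 at 4 h (2 with an unadjusted p under 0.05) and 4 higher at 8 h (median 1.59), beside 16.6% and 26.6% of all genes called higher, led by the Mediator subunits MED15 (log2FC 2.36 ± 0.18, adjusted p = 3.03e-09) and CDK8 (1.62 ± 0.15, adjusted p = 4.33e-08).

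Genes known to depend on NPR proteins were nearly all higher: of 11 tested of 12, 9 were called higher at 4 h, beside 16.6% of all genes, and 11 at 8 h, beside 26.6% (medians of 3.81 and 5.75). The 11 include WRKY59, which had 0 counts in Col-0 at both times. It passed the filter through other groups and could not be called lower. SARD1, which drives SA synthesis, averaged 1573 ± 265 CPM in 35S:RPS4 at 4 h and 2.78 ± 0.98 CPM in Col-0 (log2FC 9.14 ± 0.30, adjusted p = 7.53e-13). PR1, the classical output of NPR1, was late: at 4 h it had 0.432 ± 0.546 CPM in 35S:RPS4, against 0.156 ± 0.116 CPM in Col-0, with overlapping libraries (log2FC 1.504 ± 0.81, adjusted p = 0.134). By 8 h PR1 averaged 848 ± 116 CPM in 35S:RPS4, against 0.1197 ± 0.051 CPM in Col-0, a log2FC of 12.74 ± 0.65 (adjusted p = 2.80e-11). WRKY59 had 373 counts in 35S:RPS4 at 4 h and 7893 at 8 h, against 0 in Col-0 at both times, at least 159-fold and 2816-fold higher when Col-0 is set to 3 counts for its libraries together, bounds that leave it above the median of the list.

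GRXC9 was higher at 8 h, when most of its class was lower. Of 19 other CC-type glutaredoxins tested of 20, 6 were called higher and 1 lower between the lines at 4 h (16.6% and 12.4% of all genes), and 2 higher and 12 lower at 8 h (26.6% and 30.1%, with medians of 1.44 and -2.36, beside 7.89 and 9.08 for GRXC9). ROXY18 was called higher with 166 ± 10 CPM in 35S:RPS4 at 8 h and 0.1203 ± 0.156 CPM in Col-0 (log2FC 10.38 ± 0.55, adjusted p = 3.67e-11). The other called higher at 8 h was ROXY21, named after its value was seen (log2FC 2.72 ± 0.39, adjusted p = 5.88e-06). ROXY3 averaged 0.0564 ± 0.0976 CPM in 35S:RPS4 at 8 h and 17.5 ± 4.8 CPM in Col-0 (log2FC -7.91 ± 0.64, adjusted p = 6.10e-09). ROXY6 was higher at 4 h, with 46.8 ± 10.3 CPM in 35S:RPS4, against 9.60 ± 4.14 CPM in Col-0 (a log2FC of 2.29 ± 0.33, adjusted p = 1.67e-05), and lower at 8 h, with 3.29 ± 1.13 CPM in 35S:RPS4, against 38.1 ± 5.1 CPM in Col-0 (a log2FC of -3.52 ± 0.35, adjusted p = 8.98e-08). Reads with several possible positions were left out of the counts, so values of tandem copies among these genes are uncertain. Of the relatives of the members by sequence, NIMIN1-related (AT4G01895) was higher at 4 h (log2FC 1.77 ± 0.24, adjusted p = 1.01e-05) and likewise at 8 h (3.63 ± 0.24, adjusted p = 6.15e-10). BOP2, a BTB-ankyrin protein that patterns the leaf base, was lower at 4 h (log2FC -2.28 ± 0.36, adjusted p = 4.55e-05) and 8 h (-1.12 ± 0.35, adjusted p = 0.00777).

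**Figure D4:**
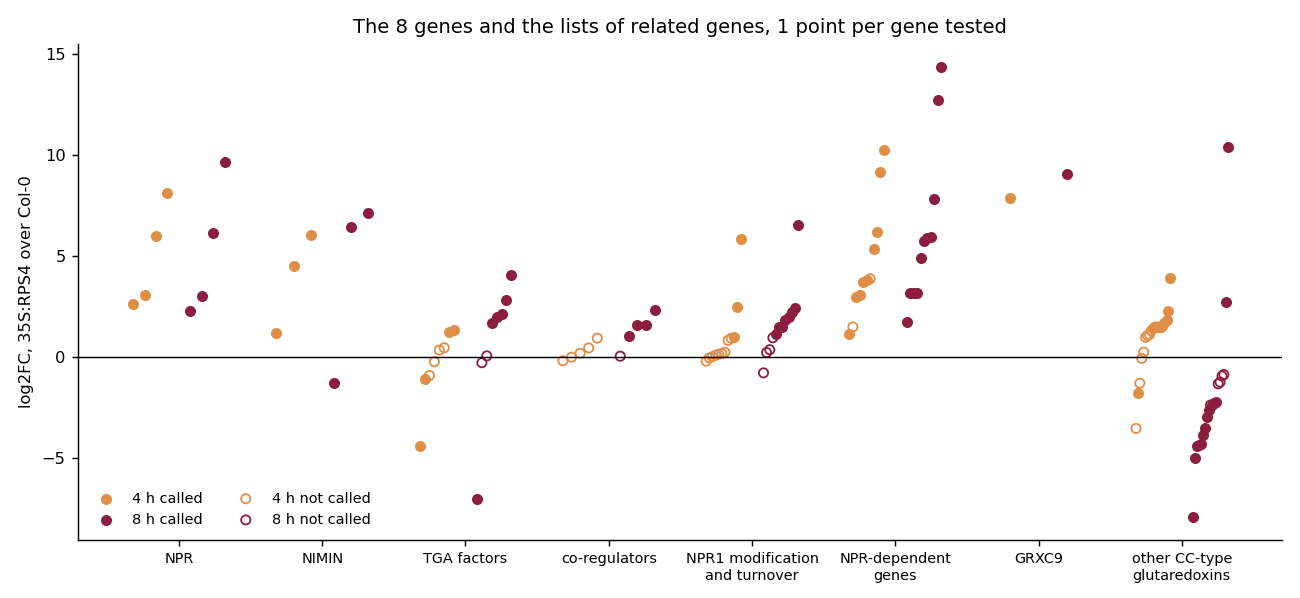
Difference between the lines (log2FC of 35S:RPS4 over Col-0) at 4 h (orange, left) and 8 h (dark red, right) for each tested gene of the NPR and NIMIN families, GRXC9 and the lists of related genes, filled where called and open where not. GRXC9, at 7.89 and 9.08, lies above all other CC-type glutaredoxins but ROXY18 at 8 h, most of which lie below 0 at that time. The points of WRKY59 (10.24 and 14.38) and, at 8 h, of PAN (-7.03) are fitted against groups at 0 counts and depend on the fit. Those of PR1, ROXY18 and ROXY3 at 8 h rest on 11, 11 and 6 counts in the lower group.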

How the data were processed

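Poly(A) RNA of leaves was sequenced in paired-end mode from 18 libraries, 3 per group, with 23876651 to 36291942 counts in genes. Per the labels, ribosomal RNA was depleted and cDNA was primed with oligo-dT. Per the submitters' processing notes, reads went through FastQC 0.11.2 and TopHat2 2.0.10 with TAIR10 as genome, and the authors deposited whole-number HTSeq counts per gene. The HTSeq version and strand setting are not given in the sources used here. Neither totals nor tests include the 5 summary lines (no feature 48.5% to 49.2%, ambiguous 0.252% to 0.369%, not unique 1.96% to 2.85% of all lines summed), and 0 columns lacked a sample. Libraries of a group were not copies (chi-square per gene 12.6 to 114).

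Genes kept by filterByExpr (20023) were fitted with 1 mean per group over all 18 libraries in edgeR 4.0.16 (R 4.3.3) with TMM factors of 0.797 to 1.15. Calls of the quasi-likelihood test needed a Benjamini-Hochberg adjusted p under 0.01 over all genes and an absolute log2FC above 1, the thresholds of the study. Comparisons were 35S:RPS4 with Col-0 at each time, times within each line, both interactions and the change of the line effect from 4 h to 8 h, 12 in all. Levels per length used union exons of TAIR10.1, which also gave positions and promoters. Count ratios carry 95% exact binomial intervals. The tests were first tested on simulated data.

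The members, lists and tests were chosen with earlier results of these data known. Text names all members, RPS4, PR1, the 2 called members of each list with the largest absolute log2FC at 4 h and at 8 h, and the 3 genes most correlated with each member. Alternatives were median-of-ratios scaling, library totals, other filters, DESeq2 1.42.0, limma voom (3.58.1), only the groups compared, a replicate block, leaving out each library and longest transcripts. Figures used Python 3.11.15 and matplotlib 3.10.9.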

Additional observations from a re-analysis of the deposited data

Results flagged for a closer look

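The test of the interaction of line and shift marked the response of the 8 genes as different between the lines. Over all genes tested, 25.3% were called so at 4 h and 52.2% at 8 h. Without Col-0 0 h replicate 2 the members called at 4 h were 5 of 8. At 4 h the difference of the log2 responses, 35S:RPS4 minus Col-0, was 3.24 for NPR1, 8.06 for NPR2, 5.94 for NPR3, 2.55 for NPR4, 5.66 for NIMIN1, 4.42 for NIMIN2, 1.18 for NIMIN3 and 9.08 for GRXC9 (edgeR, adjusted p from 1.82e-10 to 0.00473). At 8 h it was 2.46 for NPR1, 9.57 for NPR2, 6.08 for NPR3, 2.94 for NPR4, 6.74 for NIMIN1, 6.32 for NIMIN2, -1.28 for NIMIN3 and 10.27 for GRXC9 (adjusted p from 7.45e-11 to 0.00117). The values of NPR2 rest on 9 counts in Col-0 at 0 h, all in replicate 2, and on 3 counts in Col-0 at 8 h, all in replicate 3. Without that replicate of Col-0 at 8 h the value of GRXC9 was 11.83.

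The line effect itself differed between 4 h and 8 h in NIMIN2, by 1.89, and in NIMIN3, by -2.47, the tests of the difference giving adjusted p of 0.00186 and 4.24e-06. Such a change was called for 36.2% of all genes tested (13.3% higher and 22.9% lower).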

How the results depend on the processing

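The differences between the lines at 4 h and 8 h were recomputed under 26 alternatives, 416 values in all for the 8 genes, and 1 changed its call: NIMIN3 at 4 h with library totals. Called lower at 8 h throughout, NIMIN3 ranged from -1.48 to -1.14. The members called in Col-0 were less firm. At 4 h against 0 h they were 3, and 1 with limma voom or with only the groups compared, where all genes called were 1141 in place of 1734. At 8 h against 0 h they were 4, and 3 with limma voom, with only the groups compared, with the filter at 1 CPM (NPR3 at 0.998) or with the replicate block. At 8 h against 4 h they were 2, and 1 with limma voom or with only the groups compared. Leaving out 1 library gave 1 to 3 at 4 h against 0 h, 2 to 4 at 8 h against 0 h, 1 to 2 at 8 h against 4 h, and 5 to 8 for the interaction at 4 h, where NIMIN3 was lost with library totals (0.86), no filter (1.11) or only the groups compared (1.16). At 0 h the genes called between the lines were 2, against 68 by DESeq2, 1 by limma voom and 2 to 182 with 1 library left out. At 4 h library totals turned the split of all genes called to 2659 higher and 4237 lower, in place of 3315 and 2490.

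Of 2490 log2FC of members under alternatives, 32 changed sign, all of differences that were not called. With library totals these were NPR2 (-0.0353), NPR3 (-0.0131) and NIMIN3 (-0.0679) at 0 h, and with limma voom NPR2 in Col-0 at 4 h over 0 h (1.13) and GRXC9 in Col-0 at 8 h over 4 h (-0.23). With 1 library left out the ranges between the lines at 0 h were -0.50 to 4.67 for NPR2, -0.11 to 0.25 for NPR3, -0.0692 to 0.39 for NPR4, -0.42 to 0.998 for NIMIN1, -0.12 to 0.48 for NIMIN2 and -0.15 to 0.19 for NIMIN3. In Col-0 they were -0.78 to 4.39 for NPR2 and -0.13 to 0.33 for NPR4 at 4 h over 0 h, -4.60 to 3.06 for NPR2 at 8 h over 0 h, and -0.25 to 0.46 for NIMIN2 and -1.25 to 0.81 for GRXC9 at 8 h over 4 h. In 35S:RPS4 NPR2 ranged from -0.0222 to 0.40 at 8 h over 4 h. The causes were not tested.

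Whether replicate numbers pair the samples is not stated, and no clear pairing was seen. Over 45 pairs of same-numbered libraries the correlation of deviations ran from -0.223 to 0.274, 9 being over 0.1. Of 18 libraries, 8 were closest to their own number. These values cannot exclude a pairing. With the replicate block the members called in Col-0 at 8 h against 4 h were 1 in place of 2 (NIMIN1 1.45, adjusted p = 0.0133). Under it NPR3 in Col-0 at 8 h over 0 h fell just under the fold (0.9988), and GRXC9 in 35S:RPS4 at 8 h over 4 h was called (1.57, adjusted p = 0.00728). Depth limits NPR2, NIMIN1 and GRXC9 in Col-0, with 3 to 254 counts per group, and NIMIN2 there at 0 h, with 73. In 35S:RPS4 at 0 h it limits NPR2 (9 counts), NIMIN1 (15), NIMIN2 (75) and GRXC9 (109).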
